A study of Mus musculus with 11 samples.

Results

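The S100 genes encode small calcium-binding proteins, and 9 of them were followed here across the cell types of aged mouse lung: S100a1, S100a4, S100a6, S100a8, S100a9, S100a10, S100a11, S100a13 and S100g. They were taken by gene symbol and are 9 of the 17 S100 genes, and of the 31053 genes, in the deposited count matrices. The data are 11 droplet-based single-cell RNA libraries (10x Genomics, 3′ ends) of whole lung after enzymatic dissociation and lysis of red blood cells. Per the labels, 1 library came from a wild type mouse (WT, +/+), 3 from p21 heterozygotes (p21Het, +/-), 5 from p21 mTert mice (p21mTert, +/mTert) and 2 from p21 mTertCD mice (p21mTertCD, +/mTertCD). p21 is the cell cycle inhibitor encoded by Cdkn1a, mTert is mouse telomerase reverse transcriptase, and the labels spell out neither the CD allele nor how the alleles were made. The 3 groups other than WT all keep 1 unaltered p21 allele by their labels. Animals are labelled as 18 months old, except the first p21Het library (19 months) and the first p21mTert library (20 months). Every title says 18 months. WT_1, p21Het_1 and p21mTert_1 have plain titles, and the remaining 8 libraries carry a suffix in their titles; these sets are called the first and the later deposit. Names such as p21Het_2 give the group and the replicate. The labels do not say whether each library came from its own animal, so p-values measure the spread between libraries.

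Most S100 proteins form dimers that open a binding groove when calcium rises, and act by docking onto a partner such as an annexin or a myosin heavy chain. Some also leave the cell: the S100a8 and S100a9 proteins pair as calprotectin, which starves microbes of metal ions and is read as a danger signal by the receptors Tlr4 and Ager (RAGE). Others are known as calcium buffers, such as the S100g protein (calbindin-D9k), which ferries calcium through epithelial cells of the gut.

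The files held 694524094 UMIs (unique molecular identifiers, 1 per captured transcript) in 81983 barcodes. A barcode was kept if its UMI total lay between 1000 and 30000 and no more than 14% of it was mitochondrial, which left 69266 cells with a median depth of 4133 to 6454 UMIs per library. Mitochondrial UMIs made up 2.82% to 4.28% of a typical cell in later libraries, against 6.30% to 6.58% in the other 3. A cell was assigned to a lineage when it showed at least 3 genes of a 6-gene marker panel and at least 2 more than of any other panel; 57447 cells (82.9%) were assigned, and no panel held an S100 gene. In each of the 26 lineages with at least 20 cells in at least 3 libraries, the panel's summed level was highest in its own gate, from 1.94 times (classical monocytes) to 117 times (club cells) the next. Levels are CPM, the gene's UMIs per 1000000 UMIs of the lineage's cells in a library, given as the median of libraries with the range. Because only 3′ ends were counted, CPM does not scale with transcript length. Any 2 libraries shared 4 to 20 kept barcodes (at most 0.322% of the smaller). No doublet caller was run. Free RNA can enter droplets of any cell, so a background level is given where it matters.

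Most of the 9 genes are neighbours in the genome (GRCm38, GENCODE M21). S100a1, S100a13, S100a4, S100a6, S100a8 and S100a9 sit within 185 kb of chromosome 3, S100a11 (3:93520488-93526287) and S100a10 (3:93555080-93564643) lie 2825 kb further along, and S100g lies on the X chromosome (X:162961992-162964599). RefSeq's promoter table for GRCm38 held 8 of the 9, all but S100a10. TATAAA, the core of a TATA box, was searched on both strands from 250 bases before to 50 bases after each annotated start and was found in 13.6% of all 32851 promoter windows. It was present in 4 of the 8 windows, those of S100a4, S100a8, S100a9 and S100g. The 30 bases around it are shown 5′ to 3′ on the gene's strand, with the motif in capitals, because S100a8, S100a9 and S100g are the members with a single dominant source below. A match is only a run of letters, and says nothing of whether a factor binds there.
S100a8 (chr3:90669029-90669058, + strand): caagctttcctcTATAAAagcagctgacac
S100a9 (chr3:90695704-90695733, - strand): caaggagctgccTATAAAtactgggcttac
S100a4 (chr3:90603727-90603756, + strand): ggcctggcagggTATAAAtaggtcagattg
S100g (chrX:162964582-162964611, - strand): gtctgtaaagacTATAAAagagcccctcct
The motif began 30 bases before RefSeq's start of S100a8 and 31 before that of S100a4, and at RefSeq's start itself for S100a9 and S100g. Other motifs searched in the same way were CCAAT, in 1 of the 8 windows (S100a6) and 37.4% of all windows, and TTGCNNAA, in 2 of the 8 (S100a9 and S100g) and 10.8% of all windows. S100a1 and S100a13 are transcribed away from each other, and the 42 bases between their GENCODE starts (90514392 and 90514435) are shown on the + strand because the genes lie head to head. RefSeq's S100a1 start lies further back, inside the GENCODE gene.
S100a1 to S100a13 (chr3:90514393-90514434): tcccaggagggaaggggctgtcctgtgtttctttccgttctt
Of these bases 54.8% are G or C. Over the 26 lineages the levels of these 2 genes had a Pearson r of 0.47, against 0.97 for S100a8 and S100a9 (a description over lineages that share libraries and depth).

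**Figure D1:**
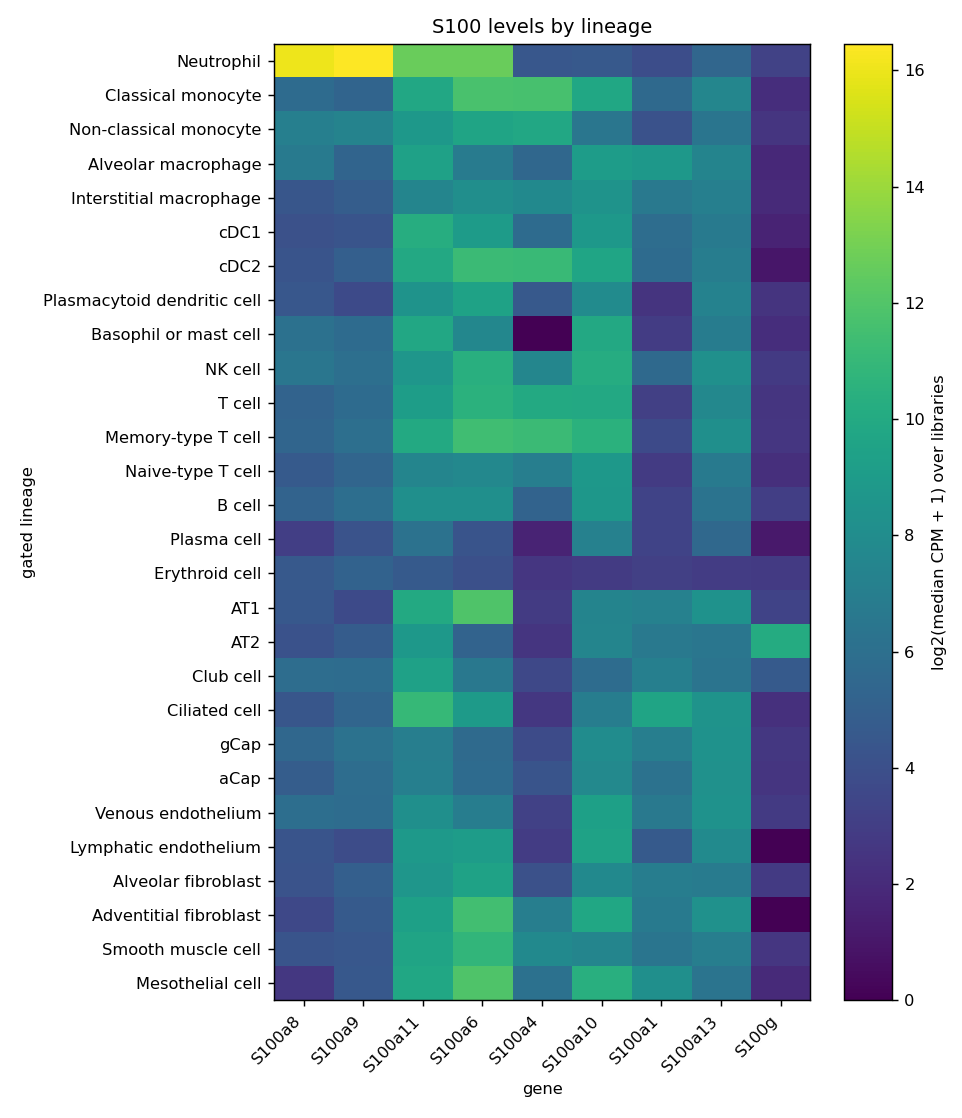
Median level of each gene (columns) in each gated lineage (rows), as log2 of the median CPM over libraries plus 1, for lineages with at least 20 cells in at least 3 libraries; memory- and naive-type T cells are subsets of T cells. S100a8 and S100a9 are bright in neutrophils, S100g in AT2 cells, and S100a11, S100a10 and S100a13 are spread widely.

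Neutrophils, short-lived phagocytes that are first at sites of infection, held most of the S100a8 and S100a9 transcripts of these lungs. The 9 genes made up 17.1% of all neutrophil UMIs (13.6% to 22.7%), and S100a8 with S100a9 alone made up 15.8% (12.3% to 21.02%). S100a8 stood at 66236 CPM (47258 to 89558) and S100a9 at 89830 CPM (76218 to 120597), each above every library of every other lineage. The next lineage for both, non-classical monocytes, reached 133 CPM for S100a8 (21.8 to 969) and 163 CPM for S100a9 (28.8 to 753). After each cell was thinned to 1000 UMIs, 99.2% of neutrophils held an S100a8 UMI (98.4% to 99.7%), against 3.71% of B cells (0.827% to 14.2%), a lineage that should lack the gene; unthinned, the shares were 99.6% at a median depth of 3816 UMIs and 14.6% at 4116 UMIs. Neutrophils accounted for 87.3% of all S100a8 UMIs of a library (76.7% to 94.0%) and 87.9% of its S100a9 UMIs (77.6% to 93.9%), although they were 2.38% to 24.5% of kept cells.

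Against classical monocytes, their nearest blood relative, neutrophils differed in all 9 members in a test within libraries (edgeR quasi-likelihood with the library as a block, 11 libraries), where 86.1% of the 7543 genes tested also passed. S100a8 was higher by 10.93 on the log2 scale (SE 0.48, edgeR adjusted p = 9.3e-15) and S100a9 by 11.67 (SE 0.52). S100a11, which binds annexin A1 and takes part in membrane repair, was higher by 3.43 (SE 0.06), and S100a6 (calcyclin), a growth-linked member, by 1.64 (SE 0.09). S100a4, S100a10, S100a1 and S100a13 ran the opposite way. S100a4, known for binding nonmuscle myosin in motile cells, was lower by a log2 difference of -6.15 (SE 0.31), at 20.8 CPM in neutrophils (4.42 to 118) and 3248 CPM in classical monocytes (3049 to 3645). S100a10, the annexin A2 partner p11, was lower by -4.57 (SE 0.17), at 22.8 CPM in neutrophils (8.34 to 51.2) and 878 CPM in classical monocytes (628 to 1149). S100a1 (-1.41, SE 0.24) and S100a13 (-1.40, SE 0.07) were also lower, and S100g was called higher by 2.06 (SE 0.24) at only 8.44 CPM in neutrophils, a level that B cells (7.22 CPM) shared. By median, neutrophils had the highest S100a6 and S100a11 levels of the 26 lineages, and for S100a10 only erythroid cells were lower (6.15 CPM). The members' median difference was 1.64, against -0.09 over all genes tested.

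The background of S100a8 varied between libraries. In B cells the level was 91.3 CPM in WT_1, 106 in p21Het_1 and 91.1 in p21mTert_1, the libraries of the first deposit. In the later deposit it was 9.44 to 45.1 CPM in 7 libraries and 174 CPM in p21Het_3, the library with the most neutrophils. Across all 11 libraries the level had a Pearson r of 0.71 (2-sided permutation p = 0.034, adjusted 0.062) and a Spearman rho of 0.52 (p = 0.11, adjusted 0.11) with the neutrophil share of kept cells. Without the 2 libraries farthest from the median share r was 0.19 (permutation p = 0.63), so the relation rests on them. Within the 8 libraries of the later deposit r was 0.94 (permutation p = 0.0048, adjusted 0.019) and rho 0.74 (p = 0.047, adjusted 0.062), and r was 0.44 (permutation p = 0.41) without the 2 farthest; the first deposit has too few libraries for a value. Single cells carried part of this background: in p21mTert_4 1 B cell held 243 of the 399 UMIs of S100a8 and S100a9, and in p21Het_3 1 held 618 of 2305. Without the cell of most such UMIs in each library, S100a8 was 7.72 CPM in p21mTert_4 in place of 24.5, 138 in p21Het_3 and 22.8 in p21Het_2. The relation then had an r of 0.62 over all libraries (permutation p = 0.036) and 0.23 without the 2 farthest (permutation p = 0.54). In the later deposit it had an r of 0.95 (permutation p = 0.0016), and 0.71 without its 2 farthest (permutation p = 0.14). The first deposit, at shares of 5.29% to 7.57%, lay above the later libraries of 3.72% to 9.45%, which held 9.44 to 37.1 CPM.

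**Figure D2:**
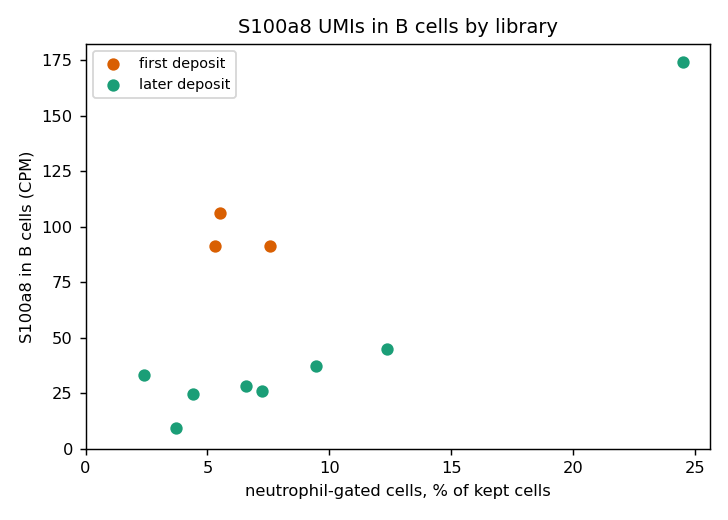
S100a8 level in B cells (CPM, vertical axis) against the share of kept cells gated as neutrophils (percent, horizontal axis), 1 point per library, coloured by deposit. The 3 libraries of the first deposit lie at 91.1 to 106 CPM at shares of 5.29% to 7.57%, above the later libraries of like share, and p21Het_3 stands apart at 24.5% and 174 CPM.

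Alveolar macrophages, the resident phagocytes of the air space, held S100a8 and S100a9 in another ratio than neutrophils, B cells and T cells. The S100a9 to S100a8 ratio was 1.39 in neutrophils (1.16 to 1.61), 1.48 in B cells (0.789, in p21Het_2, to 1.85) and 1.44 in T cells (1.18 to 1.88). In alveolar macrophages it was 0.236 (0.0947 to 1.05), and it was below the B cell ratio in 11 of 11 libraries. With UMIs summed over libraries, the ratio was 0.327 in alveolar macrophages and 0.849 in classical monocytes, which thus shared part of this trait. The sum for classical monocytes includes the p21Het_2 cell described further on. The other lineages compared ran from 1.13 (venous endothelium) to 2.35 (mesothelial cells). The S100a8 level in alveolar macrophages was 107 CPM, from 58.3 in p21mTert_4 to 277 in p21mTertCD_1, and lay above that of B cells in 10 of 11 libraries, by a median of 2.38 times. The exception was p21Het_3, at 0.55 times. S100a9 in the same cells was 38.5 CPM (7.07 to 100.1) and lay above B cells in 1 of 11 libraries, p21mTertCD_2. In that library 1 alveolar macrophage held 358 UMIs of the 2 genes, and the ratio there was 0.793 with that cell and 0.232 without it. Over all libraries the median ratio was 0.232 with the cell of most S100a8 and S100a9 UMIs left out of each. With such a cell left out of both lineages, S100a8 lay above B cells in 10 of 11 libraries, S100a9 in 0 of 11, and the ratio below that of B cells in 11 of 11. At 1000 UMIs per cell, 8.63% of alveolar macrophages held an S100a8 UMI (4.20% to 24.9%), against 3.71% of B cells; unthinned, the share was 65.5% at a median depth of 18550 UMIs.

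**Figure D3:**
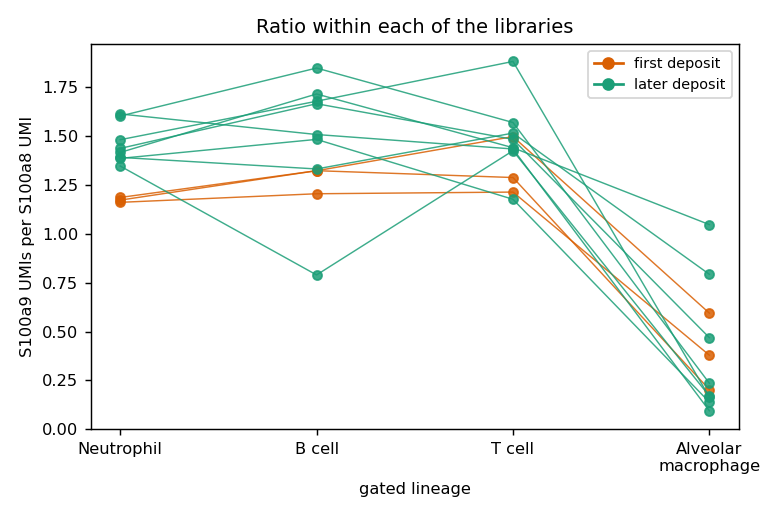
S100a9 UMIs per S100a8 UMI (vertical axis) in neutrophils, B cells, T cells and alveolar macrophages (horizontal axis), 1 line per library, coloured by deposit. Ratios lie above 1 in neutrophils and T cells and drop in alveolar macrophages in all 11 libraries.

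The test against interstitial macrophages, which live in the tissue rather than the air space, was made within libraries: 6 of 8 members tested differed, where 68.6% of 9458 genes did. S100a8 was higher in alveolar macrophages by 1.81 on the log2 scale (SE 0.22, edgeR adjusted p = 1.1e-06), whereas S100a9 differed by -0.23 (SE 0.24, edgeR adjusted p = 0.41), a value that was 0.08 in the later deposit alone, 0.04 without p21mTert_1 and 0.02 without TMM scaling. S100a1, which regulates calcium handling through the ryanodine receptor in muscle, was higher by 2.02 (SE 0.15). It stood at 427 CPM in alveolar macrophages (242 to 908) and 99.99 CPM in interstitial macrophages (74.9 to 117), so the ranges did not overlap. S100a11 was higher by 1.71 (SE 0.07) and S100a10 by 0.43 (SE 0.10). S100a4 (-3.08, SE 0.23) and S100a6 (-1.47, SE 0.26) were lower in alveolar macrophages.

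Of the 8 members tested, S100a10 differed most between the monocyte types. It stood at 878 CPM in classical monocytes (628 to 1149), the circulating precursors recruited in inflammation, and at 88.3 CPM in non-classical monocytes (50.8 to 111), which patrol vessel walls. The difference was 3.49 on the log2 scale (SE 0.07, edgeR adjusted p = 1.2e-21, 11 libraries), with no overlap between the ranges. S100a6 (2.22, SE 0.07), S100a4 (1.90, SE 0.07), S100a1 (1.72, SE 0.10), S100a11 (1.30, SE 0.07) and S100a13 (1.16, SE 0.07) were higher in classical monocytes too. Among these only the ranges of S100a13 overlapped. S100a8 (-1.36, SE 0.54) and S100a9 (-2.02, SE 0.48) were lower, at 53.1 and 38.6 CPM, beside 37.1 and 61.8 CPM in B cells. The median depth was 12200 UMIs in classical and 6783 in non-classical monocytes, and shares of cells with a UMI ran the other way. They were 30.1% and 18.7% for S100a8 and 27.9% and 22.8% for S100a9. The part of depth in these 2 differences was not tested. The S100a8 call ended in the later deposit (-0.93, edgeR adjusted p = 0.23) and without the library block (-0.15, edgeR adjusted p = 0.88). Without a filter on low counts S100a8 was not called either (-1.33, edgeR adjusted p = 0.91). The SE of that fit, 0.08, does not match its p-value, so it carries little weight. The S100a8 call also ended without p21Het_1 (-0.97), p21mTert_2 (-1.08), p21mTert_4 (-1.29) or p21mTertCD_1 (-1.07), at edgeR adjusted p from 0.051 to 0.11. The S100a9 call ended without the block (-0.58, edgeR adjusted p = 0.48). All 8 members tested were called, where 69.2% of 7858 genes were, and their median difference was 1.51 against -0.01 for all genes.

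In dendritic cells S100a4 told the subsets apart. cDC2, the conventional dendritic cells that prime helper T cells, held 2314 CPM (2070 to 3134), and cDC1, which present antigen to cytotoxic T cells, held 53.7 CPM (27.2 to 183). The log2 difference was 5.00 (SE 0.18, edgeR adjusted p = 2.7e-14, 8 libraries), and every cDC2 value lay above every cDC1 value. S100a6 (1.91, SE 0.10) and S100a10 (0.89, SE 0.11) were also higher in cDC2, again without overlap, and S100a11 was lower (-0.35, SE 0.07). Thus 4 of 8 members tested were called, where 35.8% of 4654 genes were.

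T cells carried S100a4 and S100a6 according to their memory state. The 2 subsets were set by UMIs of short lists of naive and memory genes, none of them an S100 gene or a listed partner. The genes of those lists are therefore no finding. Of 13249 T cells, 5266 were memory-type and 1041 naive-type, and the rest fell in neither subset. S100a4 stood at 2371 CPM in memory-type cells (1520 to 2909) and 129 CPM in naive-type cells (11.4 to 261), and S100a6 at 2711 CPM (2260 to 4203) and 202 CPM (42.4 to 334). Neither pair of ranges overlapped, and the log2 differences were 3.96 for S100a4 (SE 0.22, edgeR adjusted p = 6.2e-14, 10 libraries) and 3.80 for S100a6 (SE 0.19). S100a11 (2.27, SE 0.10), S100a10 (1.40, SE 0.09) and S100a13 (1.12, SE 0.09) were higher in memory-type cells as well, whereas S100a8 (-0.09, SE 0.12) and S100a9 (-0.21, SE 0.11) were not called. This made 5 of 7 members tested, where 48.2% of 7355 genes were called; the members' median was 1.40, against -0.01 for all genes. At 1000 UMIs per cell, 65.7% of memory-type cells (51.0% to 75.9%) and 4.83% of naive-type cells (0.833% to 15.6%) held an S100a4 UMI, against 1.42% of B cells; unthinned, the shares were 80.7%, 8.27% and 4.83% at median depths of 5240, 5465 and 4116 UMIs.

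Among epithelial cells, S100a6 and S100g ran in opposite directions along the alveolus. In AT1 cells, the thin cells of gas exchange, S100a6 was 2873 CPM in p21mTert_2, 4141 in p21mTert_3, 3513 in p21mTert_4, 3825 in p21mTert_5 and 5323 in p21Het_2. In AT2 cells, which make surfactant and give rise to AT1 cells, it was 36.2 CPM (18.2 to 72.0) over 11 libraries. S100g was 1110 CPM in AT2 cells (908 to 1470), above every library of every other lineage, and 0 to 23.7 CPM in AT1 cells. The within-library log2 differences, AT1 minus AT2, were 6.67 for S100a6 (SE 0.21, edgeR adjusted p = 2.1e-27) and -6.84 for S100g (SE 0.25), over the 5 libraries with enough AT1 cells, all of the later deposit. S100a13, needed for export of the growth factor Fgf1, was higher in AT1 cells by 1.54 (SE 0.13) and S100a11 by 0.77 (SE 0.13). S100a10 was at 168 CPM in AT1 and 175 CPM in AT2 cells and was not called (-0.36, SE 0.17). It was called lower in AT1 cells in 6 alternatives: with RLE scaling (-0.40, edgeR adjusted p = 0.042), without a filter on low counts (-0.54), with at least 50 cells per library (-0.73), without cells of unusually many UMIs (-0.44), without p21mTert_5 (-0.53) and without p21Het_2 (-0.62). Without TMM scaling, which moved the median of all genes from -0.07 to 0.42, its difference was 0.13. In all, 5 of 9 members were called, where 49.4% of 9720 genes were; the fifth, S100a8 (0.87, SE 0.35), rests on 27 UMIs in AT1 cells and took the opposite sign when the gate was loosened to a margin of 1 gene (-1.40). The S100a8 call also ended without the library block (edgeR adjusted p = 0.20), without a filter on low counts (0.14), with at least 50 cells per library (0.17) and with DESeq2 (adjusted p = 0.064). It ended too without p21mTert_2, p21mTert_3, p21mTert_4 or p21Het_2 (edgeR adjusted p from 0.079 to 0.11).

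AT2 cells supplied 89.7% of the S100g UMIs of a library (83.4% to 92.9%). At 1000 UMIs per cell 59.6% of AT2 cells (55.6% to 71.5%) held an S100g UMI and 0.827% of B cells did (0.119% to 1.26%); unthinned, the shares were 96.2% and 2.92% at median depths of 19920 and 4116 UMIs. The calcium channel Trpv6, which feeds calcium to calbindin-D9k in gut epithelium, was at 10.9 CPM in AT2 cells (6.54 to 17.3). In T cells, the lineage with the next highest median, it was at 0.0642 CPM. Club cells, the secretory cells of the airway, held 24.6 CPM of S100g (3.95 to 113).

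In the airway, S100a1 was higher in ciliated cells than in club cells. It was 772 CPM there (688 to 824) and 135 CPM in club cells (83.9 to 343), and S100a11 was 2046 CPM (1482 to 2519) and 669 CPM (454 to 1021). Ranges did not overlap for either gene, but the 6 genes of the club panel, which include the secretoglobins Scgb1a1 and Scgb3a2, took up 443390 CPM of the club cells, which lowers the CPM of every other gene there. After TMM scaling, which is less moved by a few abundant genes, S100a1 was lower in club cells by a log2 difference of -1.04 (SE 0.16, edgeR adjusted p = 6.6e-07, 10 libraries) and S100a11 was not called (-0.11, SE 0.14). S100a6 (-0.89, SE 0.24) and S100a13 (-0.63, SE 0.17) were lower in club cells, and S100a8 (2.18, SE 0.40) and S100a9 (1.94, SE 0.51) higher, at 57.5 and 56.1 CPM, beside the 37.1 and 61.8 CPM of B cells. This made 5 of 7 members tested, where 51.4% of 7560 genes were called. The median depth was 3884 UMIs in club cells and 13720 in ciliated cells. Cells with a UMI were 22.8% and 20.0% for S100a8 and 24.7% and 36.2% for S100a9. The part of depth in the S100a8 and S100a9 differences was not tested. With the gate loosened to a margin of 1 gene, S100a8 (1.18, edgeR adjusted p = 0.083), S100a9 (0.90, edgeR adjusted p = 0.26) and S100a6 (-0.36, edgeR adjusted p = 0.14) were not called. S100a9 was not called by DESeq2 (1.45, adjusted p = 0.074), nor S100a8 without the library block (1.30, edgeR adjusted p = 0.19), nor S100a13 with at least 50 cells per library (-0.50, edgeR adjusted p = 0.32). Without TMM scaling the median of all genes was -1.57 in place of -0.10, and S100a8 (0.78, edgeR adjusted p = 0.060) and S100a9 (0.51, edgeR adjusted p = 0.35) were not called.

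S100a13 had no single leading lineage. Its highest medians were 349 CPM in ciliated cells (307 to 399), 333 in venous endothelium, 327 in general capillary cells (gCap), 327 in AT1 cells and 324 in aerocytes (aCap), and neighbours in this order overlapped. NK cells held 301 CPM and mesothelial cells 78.7 CPM. Between the capillary types, aerocytes being the large cells over the gas exchange surface, 3 of 7 members tested were called, where 54.6% of 6462 genes were. S100a1 (-0.88, SE 0.10), S100a10 (-0.39, SE 0.08) and S100a9 (-0.34, SE 0.13) were lower in aCap. S100a9 stood at 58.5 CPM in aCap and 73.8 CPM in gCap, beside 61.8 CPM in B cells, and its difference was 0.30 with a looser gate; S100a13 was not called (-0.00, SE 0.07). The S100a9 call also ended without the library block (edgeR adjusted p = 0.49), in the later deposit (0.077) and without WT_1, p21mTert_1, p21mTert_2, p21mTert_3 or p21Het_2 (edgeR adjusted p from 0.052 to 0.074).

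S100a10 and S100a6 were both high in mesothelial cells. Among the 26 lineages S100a10 peaked in these cells, the lining of the pleura, at 1356 CPM (1116 to 1634), ahead of NK cells at 1189 CPM (1093 to 1417) and T cells at 986 CPM, all overlapping. After neutrophils (6639 CPM, 4981 to 11272), S100a6 was highest in mesothelial cells (3967 CPM), AT1 cells (3825 CPM), classical monocytes (3442 CPM) and adventitial fibroblasts (2854 CPM), again with overlap between neighbours. For S100a11, neutrophils (6712 CPM, 5594 to 7040) and ciliated cells each stood clear of the next, and cDC1 (1240 CPM), AT1 (1008 CPM) and cDC2 (962 CPM) overlapped. Adventitial fibroblasts, which sheathe vessels and airways, exceeded alveolar fibroblasts in 5 of 6 members tested over 3 libraries, where 23.8% of 4696 genes were called: S100a4 by 2.92 (SE 0.64), S100a6 by 2.06 (SE 0.26), S100a10 by 2.04 (SE 0.23), S100a13 by 1.53 (SE 0.21) and S100a11 by 0.86 (SE 0.21). The S100a4 call ended with DESeq2 (2.73, adjusted p = 0.16) and with a gate margin of 1 gene (0.95, edgeR adjusted p = 0.15), and its value was 1.40 without p21mTertCD_2 and 4.71 without p21Het_2. S100a11 was not called without p21mTertCD_2 (0.77, edgeR adjusted p = 0.18). Erythroid cells had the lowest median of S100a6 (15.5 CPM), S100a10 (6.15 CPM), S100a11 (23.9 CPM) and S100a13 (6.57 CPM).

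**Figure D4:**
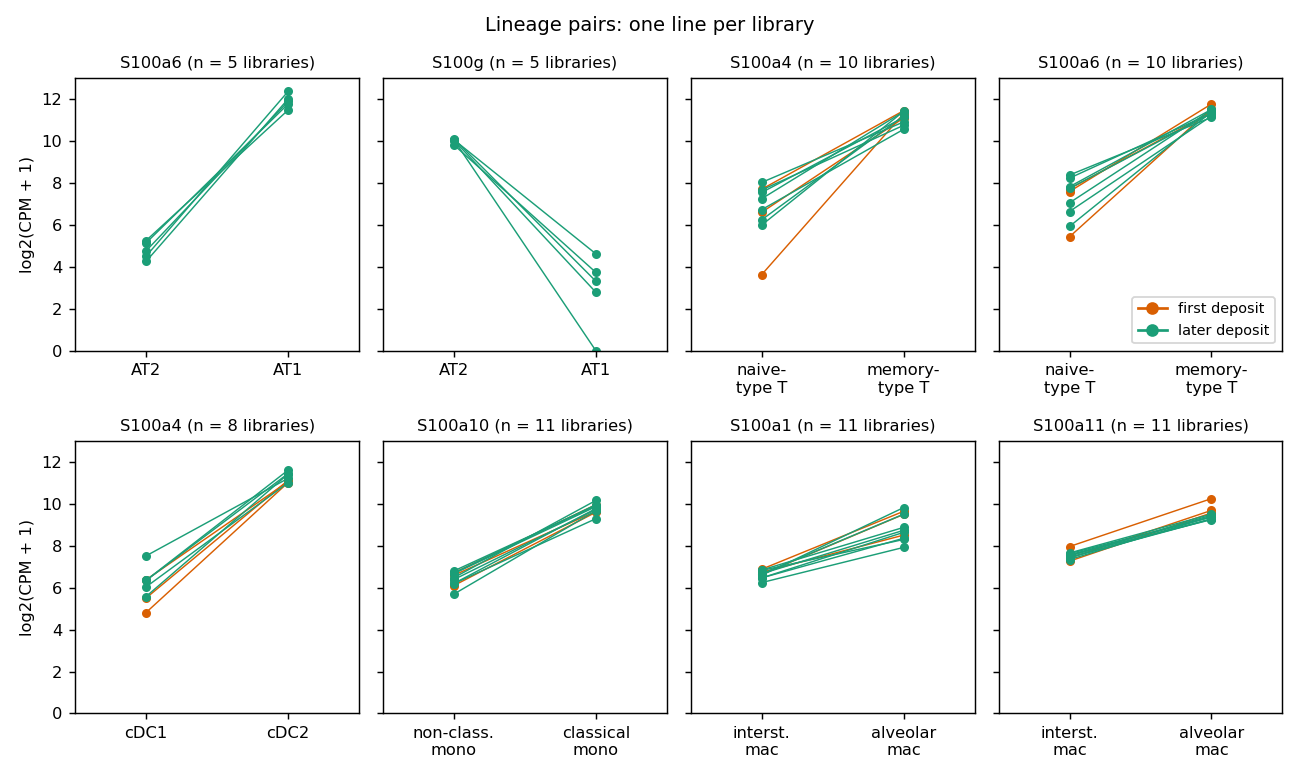
Level as log2(CPM + 1) (vertical axis) in 2 related lineages (horizontal axis) for 8 gene and lineage pairs, 1 line per library with at least 20 cells of both, coloured by deposit. Every line rises from left to right except for S100g, which falls from AT2 to AT1 in all 5 libraries.

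Known partners were examined as a list of 14 genes. In memory-type against naive-type T cells 8 of 10 partners tested were called, all higher, beside 48.2% of all genes in either direction. Anxa1, the partner of S100a11, was higher by 3.40 (SE 0.23), the S100a10 and annexin A2 binding scaffold Ahnak by 2.73 (SE 0.16) and Anxa2 by 1.65 (SE 0.19). Myh9, the myosin that S100a4 binds, was not called there (0.02, SE 0.07), nor was Cacybp (-0.09, SE 0.09). In AT1 against AT2 cells 12 of 14 were called, where 49.4% of all genes were, and 8 were higher. Among these were Ager (3.52, SE 0.15), Anxa5 (2.82, SE 0.14), Ahnak (2.67, SE 0.14), Anxa1 (2.56, SE 0.14) and Fgf1 (2.19, SE 0.16). Ager is a gene of the AT1 panel, so its difference was part of the choice of cells. Tlr4 (-8.50, SE 1.37), Trpv6 (-8.36, SE 1.41), Cd36 (-5.53, SE 0.23) and Anxa6 (-0.98, SE 0.16) were lower, and Cacybp (-0.14) and Bsg (0.15) were not called. The sizes for Tlr4 and Trpv6 are loose, as their SEs show. In neutrophils against classical monocytes, all 12 partners tested were called, 7 of them higher, where 86.1% of genes were called. Anxa11 (3.21, SE 0.09), Tlr4 (2.42, SE 0.13), Ager (1.99, SE 0.23), Myh9 (1.94, SE 0.06), Anxa1 (1.59, SE 0.09), Cd36 (1.58, SE 0.20) and Anxa2 (1.14, SE 0.08) were higher. Myh9 and Anxa2 thus ran opposite to their partners S100a4 and S100a10. Ahnak was lower (-4.29, SE 0.16), as S100a10 was, and so were Anxa5 (-2.935), Cacybp (-1.48), Anxa6 (-1.31) and Bsg (-0.52). In alveolar against interstitial macrophages Anxa2 was higher by 3.03 (SE 0.11) and its partner S100a10 by 0.43 (SE 0.10). There 8 of 12 partners were called, where 68.6% of all genes were. Of these 6 were higher and 2 lower, Ahnak (-0.27, SE 0.08) and Anxa6 (-0.48, SE 0.12). In cDC2 against cDC1 4 of 10 were called, all lower, where 35.8% of all genes were called. These were Cd36 (-5.08), Anxa6 (-1.19), Anxa11 (-0.86) and Anxa1 (-0.55).

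Of the other S100 genes, S100a16 was the one with broad expression, at 446 CPM in gCap (318 to 610), 407 CPM in lymphatic and 347 CPM in venous endothelium, and it was lower in aCap than in gCap by a log2 difference of -0.87 (SE 0.07). S100b, best known from glia, was at 46.1 CPM in ciliated cells (21 to 86.7) and at most 3.81 CPM by median in every other lineage compared. S100a14 was at 21.3 CPM in AT1 cells (6.26 to 134). S100a3, S100a5, S100a7a and S100z stayed at or below 5.07 CPM by median in each of the 26 lineages and in both T cell subsets.

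The genes whose levels over the 26 lineages were most like each member's (Pearson r of log2 levels, among 8601 genes) are given as a description. For S100a8 these were S100a9 (0.97), 9830107B12Rik (0.96) and Il1f9 (0.96), and for S100a9 they were Gm5483 (0.98), S100a8 (0.97) and Stfa2l1 (0.96). S100g was nearest Slc34a2 (0.96), Sftpc (0.95) and Lamp3 (0.95), of which Slc34a2 and Lamp3 belong to the AT2 panel. For S100a4 these were Ms4a4c (0.82, a panel gene), Arl5c (0.76) and Cx3cr1 (0.75), and for S100a6 they were Celf2 (0.77), Gsdme (0.75) and S100a11 (0.73). S100a13 lay nearest Smim15 (0.90), 0610012G03Rik (0.90) and Tsg101 (0.89), S100a10 nearest Ddx10 (0.85), Gtf3a (0.83) and Eef1d (0.83), S100a1 nearest Fam129b (0.83), Mapre3 (0.83) and Appl2 (0.83), and S100a11 nearest Mrpl33 (0.81), Isyna1 (0.80) and Slc2a1 (0.80).

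Between genotypes the question, from the series title, is what mTert expressed with p21 changes in the aged lung. No member was called in any of the 36 comparisons (all kept cells and 11 lineages, 3 contrasts each, 10 libraries without WT; edgeR, adjusted p under 0.05), in which 0% to 1.09% of all genes were called. Of the 315 member tests 63 had an unadjusted p under 0.05 (20.0%, against 6.38% of the 358986 tests of all genes; members share cells and libraries), and DESeq2 made 7 member calls in 5 of the comparisons (2.29% of 306 member tests, where it called 0.55% of all gene tests). Taking p21mTert against p21Het, then p21mTert against p21mTertCD, then p21mTertCD against p21Het, the shares of genes called were 0.0114%, 0.00571% and 0.12% in all kept cells, 0%, 0.589% and 0.388% in neutrophils, 0.204%, 0.0905% and 1.09% in classical monocytes, 0.0117%, 0.397% and 0.327% in non-classical monocytes. They were 0.0293%, 0% and 0% in alveolar macrophages, 0%, 0.0222% and 0.0111% in interstitial macrophages, 0.0115%, 0.184% and 0.138% in gCap, 0.053%, 0.0177% and 0% in AT2 cells. In the last 4 lineages they were 0.0602%, 0% and 0% in alveolar fibroblasts, 0.0329%, 0.0247% and 0.0987% in T cells, 0.0615%, 0% and 0% in B cells, 0%, 0.015% and 0% in NK cells.

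The smallest adjusted p-values of members lay in classical monocytes, described further on, and in neutrophils, both for p21mTert against p21Het. In neutrophils S100a8 was 81834, 89558 and 80905 CPM in p21Het (replicates 1 to 3), and 66236, 47888, 47258, 56721 and 64840 CPM in p21mTert (replicates 1 to 5). It was 64813 and 69366 CPM in p21mTertCD and 75761 CPM in WT (exact 95% interval 75210 to 76316, counting error only). All 3 p21Het values lay above all 5 p21mTert values, and so necessarily within each deposit. The first deposit holds only p21Het_1 and p21mTert_1 of these groups. WT lay between the groups and p21mTertCD overlapped the upper p21mTert values. The means were 84099 ± 4751 (SD, n = 3) and 56589 ± 8999 (SD, n = 5), and the log2 difference was -0.74 (SE 0.11, edgeR adjusted p = 0.061), which misses the threshold of 0.05. No gene of the 6958 tested passed (0%), 579 had an unadjusted p under 0.05.

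S100a9 gave 94989, 120597 and 114563 CPM in p21Het and 77634, 76724, 76218, 84011 and 93152 CPM in p21mTert, again without overlap. Its log2 difference was -0.60 (SE 0.13, edgeR adjusted p = 0.10). WT, at 89830 CPM, lay inside the p21mTert range for S100a9, and p21mTertCD_2, at 96469 CPM, lay above p21Het_1. S100a6 gave 7796, 11272 and 7555 CPM against 6639, 4981, 5428, 6162 and 6261 CPM, a difference of -0.78 (SE 0.17, edgeR adjusted p = 0.13). For S100a6 WT, at 8031 CPM, lay inside the p21Het range. S100a11, with a median like that of S100a6 in these cells, differed by -0.07 (SE 0.11, edgeR adjusted p = 0.93), with 5594 to 6920 CPM in p21Het and 6329 to 7040 CPM in p21mTert. These differences are after TMM scaling. With scaling to library totals alone, as in CPM, the median of all genes tested moved from -0.01 to 0.12 and S100a11 took the opposite sign (0.08, SE 0.12). On that scale S100a8 differed by -0.57 (SE 0.12, edgeR adjusted p = 0.15), S100a9 by -0.43 (SE 0.10, edgeR adjusted p = 0.22) and S100a6 by -0.59 (SE 0.15, edgeR adjusted p = 0.28).

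The call in neutrophils depended on the fit. S100a8, S100a9 and S100a6 were called by DESeq2 (adjusted p = 0.00080, 0.039 and 0.012, where 0.402% of genes were called) and in the 8 libraries of the later deposit (edgeR adjusted p = 0.0047, 0.0047 and 0.027, where 0.739% were). With a term for the deposit, S100a8 and S100a9 were called (edgeR adjusted p = 0.014 and 0.013, where 0.273% were). Without a filter on low counts all 3 were called (where 0.876% were). With the replicate number as a block in the later deposit all 3 were called too (where 2.62% were). That block fit leaves p21mTert_4, p21mTert_5 and p21mTertCD_1 each alone in a block, so its p-values say little of the spread between libraries. All 3 were called without p21Het_1 (where 0.872% were), and S100a8 alone without cells of unusually many UMIs (where 0.0893% were). Over 21 alternative fits the S100a8 difference ran from -0.99 to -0.57 with adjusted p between 1.5e-05 and 0.31, called in 8. The block fit gave both the largest difference and the smallest adjusted p. Without p21Het_2 the differences were -0.57 for S100a8, -0.41 for S100a9 and -0.42 for S100a6, none called (where 0.0141% of genes were), and the S100a6 difference moved by over 1.5 times.

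**Figure D5:**
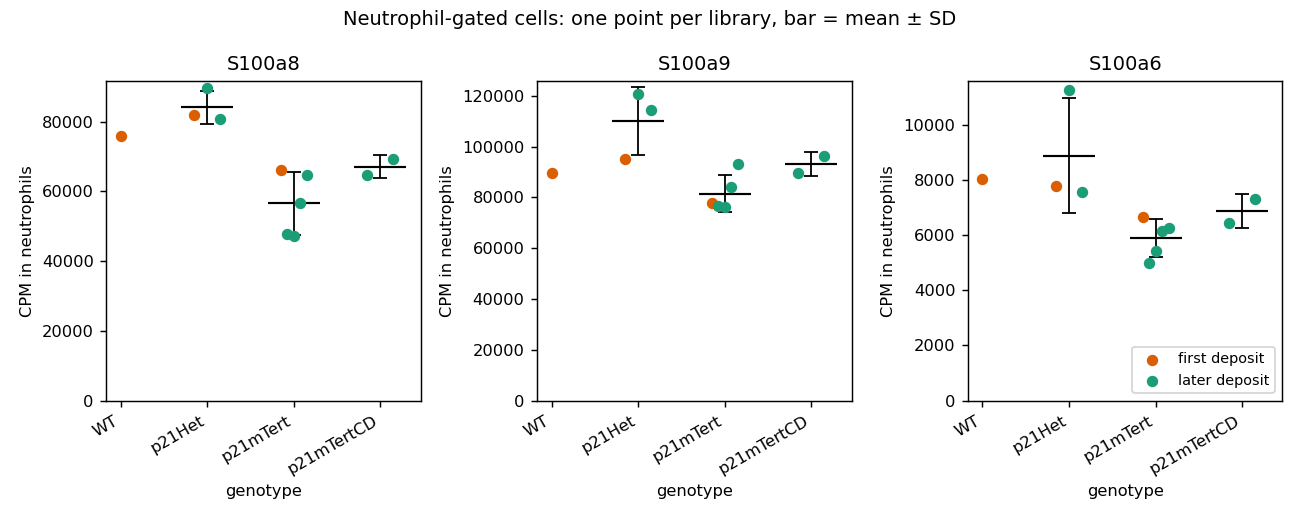
S100a8, S100a9 and S100a6 in neutrophils (CPM, vertical axis) by genotype (horizontal axis), 1 point per library coloured by deposit, with a bar for the mean ± SD where a group has more than 1 library. The 3 p21Het libraries lie above the 5 p21mTert libraries for all 3 genes; the edgeR adjusted p was 0.061, 0.10 and 0.13.

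Genes of neutrophil granules were measured beside these differences, and none of the 7 tested was called. Lcn2, which captures bacterial siderophores, was 2197, 3241 and 2908 CPM in p21Het and 1083, 1293, 1075, 1280 and 1779 CPM in p21mTert (-1.27, SE 0.20, edgeR adjusted p = 0.061), and Wfdc21 differed by -1.05 (SE 0.20, edgeR adjusted p = 0.067). The granule genes of maturing neutrophils Ngp, Camp and Ltf ranged widely within groups: Ngp was 1589, 4370 and 194 CPM in p21Het and 12.6, 747, 12.7, 1870 and 1307 CPM in p21mTert, and none of the 3 was called. Median depth of neutrophils was 2832, 4157 and 4402 UMIs in p21Het and 2677 to 4387 UMIs in p21mTert. The part of granule genes and depth in the S100a8 difference was not tested. Of 150 granule gene tests over all genotype comparisons 1 was called, Prtn3 in classical monocytes, where edgeR called 0.0981% of all gene tests; of 435 partner tests and 42 tests of other S100 genes, none was called by edgeR. An unadjusted p under 0.05 was reached in 37 granule (24.7%), 42 partner (9.66%) and 1 other S100 tests (2.38%), against the 6.38% of all gene tests.

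By CPM, S100a8 and S100a9 in classical monocytes were below the B cell background in most libraries, and p21Het_2 stood far above it. The median depth was 12200 UMIs in classical monocytes and 4116 in B cells. Shares of cells with a UMI ran the other way by median, at 30.1% and 14.6% for S100a8 and 27.9% and 21.3% for S100a9. The part of depth in this was not tested. S100a8 was 60.9, 1616 and 114 CPM in p21Het, 46.0, 13.7, 10.6, 11.6 and 65.5 CPM in p21mTert, and 53.1 and 25.7 CPM in p21mTertCD, so that p21Het_2 stood alone. In B cells of the same libraries it was 106, 33.1 and 174 CPM in p21Het and 91.1, 25.8, 9.44, 24.5 and 37.1 CPM in p21mTert. Monocytes lay above B cells for S100a8 in 4 of 11 libraries (p21mTert_3, p21mTert_5, p21Het_2 and p21mTertCD_1) and for S100a9 in 1 of 11, p21Het_2. Single cells decided part of the S100a8 count. Without the monocyte of most S100a8 and S100a9 UMIs, p21mTert_3 monocytes held 2.17 CPM, below B cells. Without such a B cell, p21mTert_4 B cells held 7.72 CPM, below monocytes. S100a9 was 58.1, 1406 and 96.3 CPM in p21Het and 38.6, 25.5, 2.12, 8.35 and 23.3 CPM in p21mTert, without overlap, against 128, 26.1 and 298 CPM and 120, 47.7, 14.2, 41.0 and 61.8 CPM in B cells. The log2 difference between p21mTert and p21Het was -4.26 for S100a8 (SE 0.87, edgeR adjusted p = 0.081) and -4.51 for S100a9 (SE 0.87, edgeR adjusted p = 0.051); the part of free RNA in it was not tested. Both genes were called in the later deposit (edgeR adjusted p = 0.010 and 0.0066, where 0.64% of genes were called). They were also called there with the replicate block (where 0.361% were) and without p21Het_1 (edgeR adjusted p = 0.0045 and 0.0039, where 0.532% were). Without a filter on low counts both were called (where 1.05% were), but with SEs of 0.15 and 0.16 in place of 0.87. The edgeR adjusted p-values of that fit, 3.8e-168 and 5.2e-174, are out of keeping with 10 libraries, so its calls carry little weight. S100a8 alone was called by DESeq2 (adjusted p = 0.011, where 0.734% were), which gave no adjusted p for S100a9, and with a gate margin of 1 gene (edgeR adjusted p = 0.031, where 0.13% were). S100a9 alone was called with a term for the deposit (edgeR adjusted p = 0.048, where 0.475% were) and with a gate of 4 genes (0.049, where 0.249% were). A single p21Het_2 cell of 29282 UMIs held 3280 UMIs of the 2 genes, 83.2% of those in its 93 classical monocytes. Without that cell S100a8 was 393 CPM there, and without p21Het_2 the differences were -1.44 and -1.71 (edgeR adjusted p = 0.51 and 0.21, where 0.0565% of genes were called).

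In whole lung, S100a8 over all kept cells was 2742, 1562 and 11560 CPM in p21Het, where neutrophils were 5.52%, 2.38% and 24.5% of kept cells. It was 2916, 2052, 934, 1478 and 3878 CPM in p21mTert, where they were 7.57%, 7.22%, 3.72%, 4.39% and 9.45%. The groups overlapped, the log2 difference was -1.33 (SE 0.63, edgeR adjusted p = 0.67), and without p21Het_3 it was 0.07 (S100a9, 0.30); fewer neutrophils and less RNA per neutrophil cannot be told apart in such sums. The largest S100a4 level over all cells, 1118 CPM in p21mTertCD_1, came with 64.7% of its UMIs in T cells, against 16.6% to 47.7% in the other libraries.

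In T cells as a whole, S100a4 ranged from 579 to 2650 CPM between libraries, and p21mTertCD_1 had fewer than 20 naive-type T cells. Members in T cells were not called for p21mTert against p21mTertCD, but without p21mTertCD_2, whose absence leaves p21mTertCD_1 as the only library of its group and assumes that it varies like the others, 6 were (where 9.09% of genes were).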

How the data were processed

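Per the labels' protocols, dissociated lung cells were loaded on a 10x Genomics Chromium controller. Per the submitters' processing notes the deposited UMI counts were made by the authors with Cell Ranger against mm10, and the deposited matrices hold whole-number counts per gene and cell. The smallest barcode holds 500 or 501 UMIs. Library totals were 42038434 to 85988955 UMIs. The filter on cells and the marker gate are given above; 1 gene, Ahsp, of the erythroid panel was not found in the files. Counts were summed per library and lineage (at least 20 cells). Genotype fits used the 10 libraries other than WT (1 library); lineage fits used the library as a block. The test was edgeR 4.0.16 (quasi-likelihood, TMM, filterByExpr, Benjamini-Hochberg over all genes tested, adjusted p under 0.05), in R 4.3.3; DESeq2 1.42.0 was an alternative. Correlations across libraries used 100000 permutations (scipy 1.17.1). Tested on simulated counts, the all-cell fit over 17503 genes recovered 62% of changes of 1 on the log2 scale and 91% of changes of 2, with 3.16% false calls. The AT2 fit over 11311 genes recovered 79% and 94%, with 4.42%. The simulated spread followed the trend over all genes, so genes that vary more than the trend, as with neutrophil share, would be recovered less often. Neutrophil and monocyte fits were not simulated. Genes are named as members, as fixed lists (other S100 genes, partners, granule genes), or as the 3 genes most correlated with a member over the lineages among genes reaching 50 CPM. The genes that set the T cell subsets are not all reported here. Members and lists were chosen with earlier results of these data known. Intervals cover counting error only.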

Additional observations from a re-analysis of the deposited data

Results flagged for a closer look

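In groups of 5 p21mTert libraries, single libraries stood apart from the other 4 by more than 0.71 of the group's range (Dixon's criterion at 95%) in 9 of 101 member and lineage groups; chance alone marks about 1 in 20. In p21mTert_1, the only one of these libraries from the first deposit, S100a8 was 236 CPM in alveolar macrophages (58.3 to 74.7 in the others), 130 CPM in interstitial macrophages (5.61 to 14.3) and 66.9 CPM in alveolar fibroblasts (7.45 to 15.1). S100a9 in the same library was 160 CPM in interstitial macrophages (7.48 to 27.6) and 118 CPM in alveolar fibroblasts (7.60 to 30.3), and S100a13 was 135 CPM in non-classical monocytes (61.7 to 82.7). The S100a8 background in B cells was 91.1 CPM in that library and 9.44 to 37.1 CPM in the other 4. In p21mTert_2, S100a4 was 82 CPM in alveolar macrophages (43.4 to 52.5 in the others) and S100a9 was 306 CPM in NK cells (9.28 to 70.8). The summed neutrophil panel in NK cells was 65.9 CPM in that library, against 7.95 to 23.2 CPM in the other 10, and its part in the S100a9 value was not tested. In p21mTert_5, S100a1 was 61.7 CPM in classical monocytes (44.4 to 48.8).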

How the results depend on the processing

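Left-out libraries aside, of the alternatives to results that answer a comparison, 442 kept their direction and side of the threshold (counts within 1.5 times), 38 counts of called members moved and 1 value weakened. Counts below are members called, against 0 in the test as reported unless stated, in the order p21mTert minus p21Het, p21mTert minus p21mTertCD, p21mTertCD minus p21Het where several are given. Over the genotype comparisons together, the share of member tests called and that of all gene tests were 2.29% and 0.55% with DESeq2, 9.26% and 0.441% without a filter on low counts, 0.952% and 0.117% with a deposit term, 2.22% and 0.117% in the later deposit and 4.44% and 0.187% with the replicate block. They were 0.321% and 0.0999% without cells of unusually many UMIs, 0.347% and 0.105% with a gate of 4 genes, 0.694% and 0.0797% with a gate margin of 1 gene, 2.22% and 0.129% without p21Het_1 and 5.35% and 0.829% without p21mTertCD_2. In the single comparisons with a member call, the share of all genes ran from 0.0585% to 4.03% with DESeq2 and from 0.089% to 1.37% without a filter. The unfiltered fit gave SEs in classical monocytes far below those of the main fit, so counts from it carry little weight. With DESeq2 the members called were 3 in neutrophils, 1 in classical monocytes and 1 in alveolar macrophages for p21mTert minus p21Het, and 1 in all kept cells and 1 in alveolar macrophages for p21mTert minus p21mTertCD. Without a filter on low counts they were 4, 2 and 1 in neutrophils, 2, 2 and 1 in non-classical monocytes, 2, 1 and 1 in alveolar fibroblasts, 2 (p21mTert minus p21Het) and 2 (p21mTertCD minus p21Het) in classical monocytes, 1 and 2 in alveolar macrophages, 1 in interstitial macrophages, 2 in gCap, 2 and 2 against p21mTertCD in NK cells, and 8 of 9 for club against ciliated cells (5 of 7 as reported), where 32.1% of all genes were called (51.4% as reported). A deposit term gave 2 in neutrophils and 1 in classical monocytes; the later deposit alone gave 3 in neutrophils and 2 and 2 in classical monocytes against p21Het. The replicate block gave 3 in neutrophils, 2 and 2 in classical monocytes against p21Het and 1, 3 and 3 in non-classical monocytes. In those comparisons it called 0.361% to 2.62% of all genes. Whether the replicate numbers pair the samples could not be decided. The r of same-numbered libraries ran from -0.55 to 0.16, but in a group of 2 libraries the r values are mirror images of each other. Dropping cells of unusually many UMIs gave 1 in neutrophils, a gate of 4 genes 1 and a gate margin of 1 gene 1 in classical monocytes, and that margin 1 in AT2 cells against p21mTertCD. With 1 library left out, counts ran from 0 to 3 in neutrophils and 0 to 2 in classical monocytes against p21Het (p21mTert), 0 to 2 (p21mTertCD, classical monocytes), 0 to 1 in neutrophils against p21mTertCD, 0 to 2 and 0 to 1 in all kept cells, 0 to 6 and 0 to 5 in T cells and 0 to 1 and 0 to 1 in NK cells. These T cell and NK cell maxima came without p21mTertCD_2. The B cell correlation was 0.58 on the log2(CPM + 1) scale. The sign reversed for S100a8 in AT1 against AT2 (-1.40) and S100a9 in aCap against gCap (0.30) with a gate margin of 1 gene, for S100a9 in alveolar against interstitial macrophages in the later deposit (0.082) and without p21mTert_1 (0.041; range over left-out libraries -0.43 to 0.041) and without TMM scaling (0.020), for S100a10 in AT1 against AT2 without TMM scaling (0.13), and for S100a8 and S100a9 in all kept cells without p21Het_3 (ranges -1.76 to 0.072 and -1.71 to 0.30). Among single genes, left-out libraries aside, 543 values kept their call, 20 lost and 29 gained one and 5 reversed. Losses concerned S100a8 and S100a9 between the monocyte types, S100a8 in AT1 against AT2, S100a6, S100a8, S100a9 and S100a13 in club against ciliated cells, S100a9 in aCap against gCap and S100a4 in fibroblasts. Gains concerned p21mTert minus p21Het in neutrophils and classical monocytes, and S100a10 in AT1 against AT2. The causes were not tested. Leaving out the cell of most S100a8 and S100a9 UMIs, and the fits without TMM scaling, were chosen after seeing the data; without that scaling no member was called between genotypes, where 0.0877% of all gene tests were. Arterial against venous endothelium had no main fit, since only 2 libraries held enough arterial cells. Among the alternatives it was fitted without TMM scaling, where 5 members and 14.5% of 4905 genes were called.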
